A study of Rattus norvegicus with 6 samples.

Results

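A set of 10 genes of nitric oxide and cyclic GMP (cGMP) signalling, chosen by gene symbol, was followed in rat lung: the nitric oxide synthases Nos1, Nos2 and Nos3, the soluble guanylate cyclase subunits Gucy1a1 and Gucy1b1, the natriuretic peptide receptors Npr1 and Npr3, the cGMP-dependent kinase Prkg1, and the phosphodiesterases Pde5a and Pde3a. All 10 were found by symbol among the 19828 rows of the deposited table, Gucy1a1 and Gucy1b1 under their older names Gucy1a3 and Gucy1b3. The samples were total lung of Sprague-Dawley rats, 3 labelled Ahr-KO, a knockout of the aryl hydrocarbon receptor gene Ahr, and 3 labelled wild type (WT). Both groups carried the same treatment label, Sugen-Hypoxia, at day 56. Sugen is an inhibitor of VEGF receptors that, given with low oxygen, is used as a rat model of pulmonary arterial hypertension, and untreated lungs were not analysed here. No source used here gives the rats' age or sex, the kind of Ahr edit, or whether a sample was 1 animal. The p-values therefore cover only the scatter of these 6 samples, and that scatter may be technical.

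Nitric oxide made in lung endothelium from arginine diffuses into the smooth muscle around the vessel and binds the haem of soluble guanylate cyclase, which then makes cGMP. Natriuretic peptides raise the same messenger through a receptor that is itself a guanylate cyclase. cGMP activates a protein kinase that relaxes the muscle, and phosphodiesterases break cGMP down. Inhibitors of phosphodiesterase 5 and stimulators of soluble guanylate cyclase are drugs for pulmonary arterial hypertension.

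The deposited values are called normalised read counts here: in each library, 97.4% to 97.9% of those above 0, all member values among them, were whole multiples of 1 step (within 0.05), and the others were not. They summed to 18.9 to 19.3 M in the Ahr-KO and 17.8 to 18.01 M in the WT libraries, which corresponded to an estimated 14.2 to 23.6 M reads in Ahr-KO and 12.9 to 21.9 M reads in WT. The table numbers the libraries of each group 0, 1 and 2, and library 2 was the shallowest of each group. Lung markers were abundant in every library, with a summed normalised count of 888423 to 953660 in Ahr-KO and 736323 to 748745 in WT over 8 markers. Ahr itself had normalised counts of 2399, 3923 and 3575 in Ahr-KO and 2939.96, 2860.4 and 3395 in WT, so its gene-level value, which may include exons outside the edit, does not check the labels. Its target Cyp1a1 stood at 10.5, 0.83 and 1.36 in Ahr-KO against 27085, 23512 and 37694 in WT. Across the table, 1655 of 15386 tested genes (10.8%) passed limma's test at a Benjamini-Hochberg adjusted p under 0.05, with 692 higher and 963 lower in Ahr-KO (448 and 1314 after scaling to equal library totals). Leaving out 1 Ahr-KO library brought that count to 407 (number 2) or 529 (number 1), and leaving out 1 WT library brought it to 705 (number 0) or 871 (number 1).

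None of the 9 tested members passed that threshold, while 6 of them had an unadjusted p under 0.05, as did 27.9% of all tested genes. By limma-voom, fitted to the values divided by that step (the estimated reads), 1 member passed, as did 10.5% of all tested genes. With equal library totals 1 member passed, as did 11.5% of all. For 4 members the 3 values of one group all lay on one side of the other group, as they did for 34.3% of all tested genes. Of these, 1 was higher in Ahr-KO, Pde3a (17% of all tested genes were separate in this direction), and 3 were lower, Nos1, Nos3 and Pde5a (17.4% of all). The members' median log2 difference was 0.16, against 0.01 over all tested genes. Log2 differences are Ahr-KO minus WT on the log2(value + 1) scale, which understates the change of low genes.

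**Figure D1:**
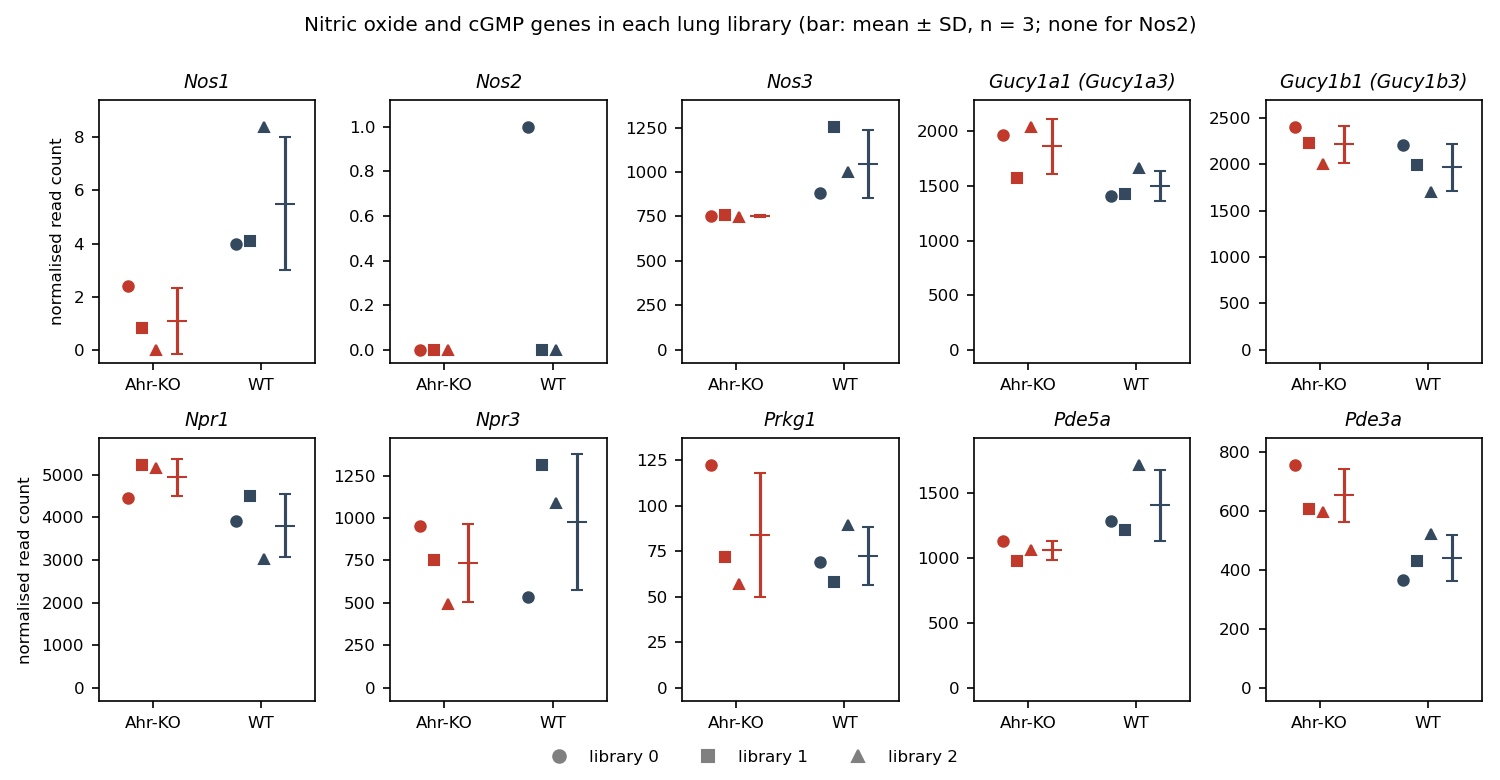
Normalised read count of each of the 10 genes in every library, Ahr-KO left and WT right, with marker shape giving the library number and the bar the mean ± SD of 3 libraries. The 3 Nos3 values in Ahr-KO lie between 749 and 760.3, below every WT value, and the 3 Pde3a values in Ahr-KO lie above every WT value.

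The start-site regions of the 3 separated members with more than a few reads are shown because the knocked-out gene encodes a transcription factor. The aryl hydrocarbon receptor binds DNA around the core GCGTG, and matches to this core on either strand (CACGC on the other) are in capitals. Each window runs 5′ to 3′ along the gene's strand, from 250 bases before to 50 after the start site that RefSeq gives for GRCr8.
Nos3, chr4:11706532-11706831, minus strand: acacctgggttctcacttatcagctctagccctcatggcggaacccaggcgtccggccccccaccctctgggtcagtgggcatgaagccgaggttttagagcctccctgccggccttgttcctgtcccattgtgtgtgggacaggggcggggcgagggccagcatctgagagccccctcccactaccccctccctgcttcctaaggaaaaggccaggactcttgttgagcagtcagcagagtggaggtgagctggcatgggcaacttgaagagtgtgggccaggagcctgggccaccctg
Pde5a, chr2:213543776-213544075, plus strand: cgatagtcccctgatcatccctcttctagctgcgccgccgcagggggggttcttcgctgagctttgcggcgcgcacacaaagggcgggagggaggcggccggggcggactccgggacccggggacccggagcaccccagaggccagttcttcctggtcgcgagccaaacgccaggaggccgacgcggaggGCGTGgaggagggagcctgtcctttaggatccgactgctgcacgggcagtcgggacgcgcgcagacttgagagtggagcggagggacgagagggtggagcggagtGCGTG
Pde3a, chr4:175904026-175904325, plus strand: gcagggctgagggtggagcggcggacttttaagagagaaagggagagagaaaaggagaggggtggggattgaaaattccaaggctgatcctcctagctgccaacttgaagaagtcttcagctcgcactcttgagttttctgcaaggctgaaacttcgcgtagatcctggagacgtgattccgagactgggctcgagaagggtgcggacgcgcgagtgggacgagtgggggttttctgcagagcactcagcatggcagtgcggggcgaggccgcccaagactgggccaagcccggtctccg
The Pde5a window held 2 matches, starting at bases 191 and 296 counted from its 5′ end. The Nos3 and Pde3a windows held 0. Of the 9 members with a window in the table of RefSeq windows used here, 1 held the core, compared with 29.7% of all 33469 windows of this length. Of the other pathway genes described below as past the threshold, Slc7a1, Ddah1 and Csrp2 had a window in this table, and these held 1, 1 and 4 matches. A match is a description of these letters, and binding was not measured.

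Of the synthases, Nos3 held an estimated 5527 reads over the 6 libraries, Nos1 19 and Nos2 1. Nos3, the endothelial enzyme, had normalised counts of 753, 760.3 and 749 in Ahr-KO libraries 0, 1 and 2, against 884, 1254 and 997 in the WT libraries. The Ahr-KO values were nearly equal to one another and all below the lowest WT value, and the WT values were spread far more widely. The mean was 754 ± 5.80 in Ahr-KO and 1045 ± 189.7 in WT (SD, n = 3 each), a log2 difference of -0.46 ± 0.13 (SE) with a 95% interval of -0.76 to -0.15. Its limma adjusted p was 0.068, and over the alternatives it ran from 0.037, with equal library totals, to 0.18. Each value rested on 549 to 1527 estimated reads. Counting error alone at such read numbers is larger than the Ahr-KO SD of 5.80, so the near equality is not read as a trait of Ahr-KO.

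Nos1, the neuronal synthase, had 2.42, 0.83 and 0 in Ahr-KO and 3.999, 4.11 and 8.39 in WT. The groups did not overlap, but no value was more than 6 reads. The log2 difference of -1.75 ± 0.60 did not pass (limma adjusted p = 0.10). Of 7 tested nerve markers, Tubb3 was lower in Ahr-KO past the limma threshold (0 by limma-voom). Uchl1 and Syt1 did not pass but had every Ahr-KO value below every WT value (limma adjusted p = 0.10 and 0.075). Snap25 did not pass either and went the other way, with every Ahr-KO value above every WT value (log2 1.09, limma adjusted p = 0.25). Snap25 held at most 4 reads in any library. Of all tested genes, 17.4% were separate and lower in Ahr-KO and 17% separate and higher. The marker sum was 82.6 to 235 in Ahr-KO and 83.9 to 241 in WT, which overlap. Prph held most of the sum in 5 of the 6 libraries. Without Prph, left out after the values were seen, the sum was 18.2 to 24.2 in Ahr-KO and 43.0 to 68.2 in WT. Tubb3, Uchl1 and Syt1 held at most 37, 20 and 22 reads in any library. The part of the nerve markers in the Nos1 values was not tested. Nos2, the inducible synthase of activated macrophages, was listed at 0 in all 3 Ahr-KO libraries and in WT libraries 1 and 2, and stood at 1.00, which was 1 read, in WT library 0. It was not tested. At this depth a count of 0 allows up to 3 reads, a normalised count of 2.42 to 4.20 depending on the library, and such limits cover counting error only. Of 7 tested macrophage and neutrophil markers 0 passed limma's test (3 at an unadjusted p under 0.05, 0 by limma-voom). Cd68 and Adgre1 had every Ahr-KO value below every WT value (limma adjusted p = 0.073 and 0.081). Csf1r had every Ahr-KO value above (limma adjusted p = 0.16). Marco was listed at 0 in all 6 libraries, and the markers summed to 9360.3 to 14860 in Ahr-KO and 11427 to 13747 in WT.

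The endothelial markers stood at a higher sum in Ahr-KO, where Nos3 stood lower. Of 10 such markers, 2 were higher in Ahr-KO past the limma threshold, the adhesion molecule Pecam1 and the angiopoietin receptor Tek, 1 was lower, the sialomucin Emcn, and 7 did not pass. Their summed normalised count was 105016 to 116060 in Ahr-KO and 82624 to 95079 in WT. Per 1000 of that sum, Nos3 stood at 6.49, 7.07 and 7.13 in the Ahr-KO libraries, against 9.74, 13.2 and 12.1 in the WT libraries. The mean was 6.90 ± 0.36 in Ahr-KO and 11.7 ± 1.76 in WT (SD, n = 3 each). The groups could not overlap in this ratio, because Nos3 was separate and lower and the marker sum separate and higher. Whether the make-up of the tissue bears on the Nos3 values was not tested beyond this. This ratio, like the others below, was chosen after the values were seen and has no test. In bulk tissue, fewer cells of a type and less RNA per cell cannot be told apart.

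The 2 subunits of soluble guanylate cyclase, which are neighbouring protein-coding genes on chromosome 2 in RefSeq's GRCr8 annotation, were at overlapping levels. Gucy1a1, the alpha subunit, had 1971, 1576 and 2042 in Ahr-KO and 1412.5, 1427 and 1662 in WT. Only the lowest Ahr-KO value lay inside the WT range. Its log2 difference was 0.31 ± 0.12, with a 95% interval of 0.02 to 0.59 (limma adjusted p = 0.15). Gucy1b1, the haem-binding beta subunit, had 2404, 2232 and 2007 in Ahr-KO and 2211, 1987 and 1701 in WT. These values were interleaved, and the log2 difference of 0.18 ± 0.12 did not pass (limma adjusted p = 0.39). It was 0.11 when Ahr-KO library 0 was left out, and 0.075 or 0.26 when WT library 2 or WT library 0 was. The ratio of Gucy1a1 to Gucy1b1 was 0.82, 0.71 and 1.02 in Ahr-KO, against 0.64, 0.72 and 0.98 in WT. The groups overlapped, and library 2, the shallowest, had the highest ratio in each. Ratios of normalised counts are compared only between libraries, since the 2 genes differ in length.

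**Figure D2:**
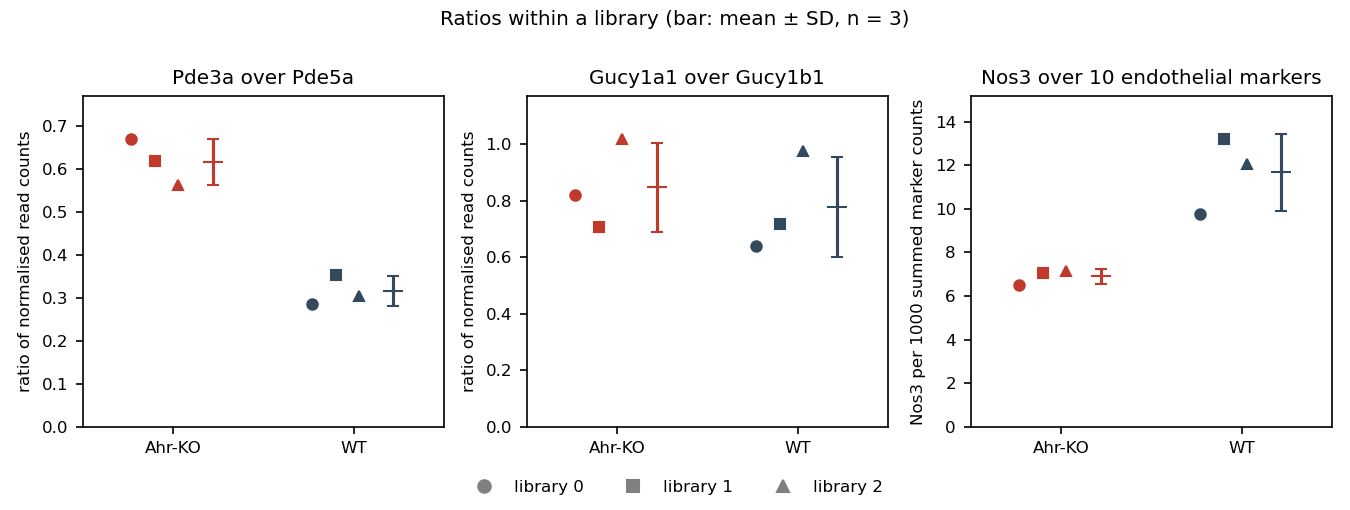
Ratio within each library of Pde3a to Pde5a, of Gucy1a1 to Gucy1b1 (ratios of normalised counts) and of Nos3 to 1000 summed counts of 10 endothelial markers, Ahr-KO left and WT right, with bars for mean ± SD of 3 libraries. The first and the last do not overlap between groups, at 0.56 to 0.67 in Ahr-KO against 0.29 to 0.35 in WT for Pde3a over Pde5a, while the Gucy1a1 to Gucy1b1 ratios overlap. Both separations follow from numerator and denominator each being separate, in opposite directions.

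Of the natriuretic peptide receptors, Npr1, the receptor that makes cGMP, had 4443, 5224 and 5148 in Ahr-KO and 3912, 4492 and 3010.4 in WT. The groups overlapped by 1 library on each side. The mean was 4938 ± 431 in Ahr-KO and 3805 ± 747 in WT (SD, n = 3 each), a log2 difference of 0.39 ± 0.15 (limma adjusted p = 0.14), which was 0.23 without WT library 2. Npr3, the clearance receptor that removes the peptides, had 951, 755 and 497 in Ahr-KO and 536, 1312 and 1086 in WT. Its values spread over more than the difference between the groups, at log2 -0.37 ± 0.35 with a 95% interval from -1.18 to 0.44 (limma adjusted p = 0.54). Leaving out WT library 1 brought that difference to -0.11, leaving out Ahr-KO library 2 also to -0.11, and leaving out WT library 0 to -0.75.

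Prkg1, the kinase that cGMP activates in smooth muscle, had 123, 71.9 and 57.3 in Ahr-KO and 69.0, 58.3 and 89.5 in WT. Ahr-KO library 0 lay above all WT values and Ahr-KO library 2 just below them. The log2 difference was 0.16 ± 0.31 (limma adjusted p = 0.78), and it turned to -0.15 without Ahr-KO library 0. With 42 to 152 reads per library, the 95% interval of -0.57 to 0.89 covers differences in both directions. Of 8 smooth muscle markers, 0 passed limma's test (3 at an unadjusted p under 0.05, 0 by limma-voom). In 3 of the 8 every Ahr-KO value lay above every WT value, as in 17% of all tested genes, and in 0 below. These 3 were Myh11, Tagln and Lmod1 (limma adjusted p = 0.085, 0.12 and 0.089). The summed normalised count of the 8 was 32415 to 51433 in Ahr-KO and 24549 to 34858 in WT.

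The 2 phosphodiesterases stood on opposite sides of their WT levels, and neither passed limma's test. Pde3a, which hydrolyses mainly cyclic AMP and is inhibited by cGMP, had 756, 606 and 596 in Ahr-KO and 367, 429.5 and 523 in WT. Every Ahr-KO value lay above the highest WT value. The mean was 653 ± 89.6 in Ahr-KO and 439.9 ± 78.7 in WT (SD, n = 3 each), a log2 difference of 0.57 ± 0.16 with a 95% interval of 0.20 to 0.95. Its limma adjusted p of 0.059 was the lowest of the members. It passed without WT library 2 (limma adjusted p = 0.026) and with limma-voom (0.048), and reached 0.15 at the highest of the alternatives.

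Pde5a, the cGMP-specific enzyme that sildenafil inhibits, had 1129.9, 979 and 1059.95 in Ahr-KO and 1281, 1214 and 1714 in WT. The Ahr-KO values all lay below the lowest WT value, and WT library 2 stood well above the other WT libraries. The log2 difference was -0.39 ± 0.14 with a 95% interval of -0.72 to -0.07 (limma adjusted p = 0.11), and it was -0.24 without WT library 2. The ratio of Pde3a to Pde5a was 0.67, 0.62 and 0.56 in the Ahr-KO libraries, against 0.29, 0.35 and 0.31 in the WT libraries. Its mean was 0.62 ± 0.05 in Ahr-KO and 0.32 ± 0.03 in WT (SD, n = 3 each). The groups could not overlap in this ratio, because Pde3a was separate and higher and Pde5a separate and lower.

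**Figure D3:**
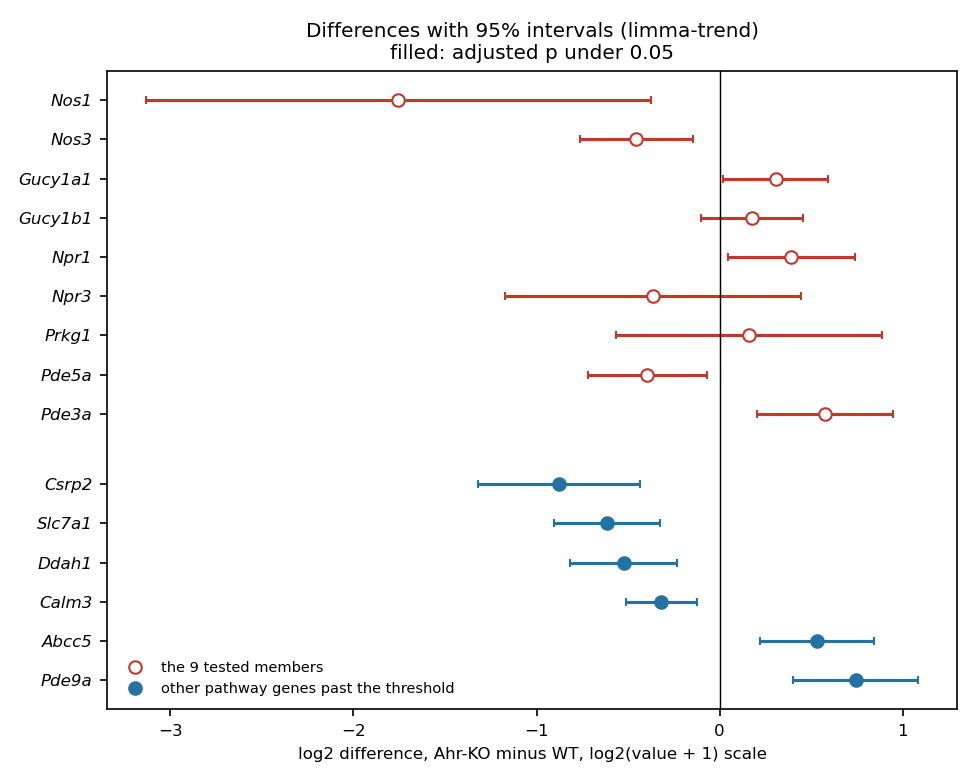
Log2 difference (Ahr-KO minus WT) with its 95% interval for the 9 tested members and for the other pathway genes past the threshold, with filled points for a limma adjusted p under 0.05. The intervals of Nos1, Nos3, Gucy1a1, Npr1, Pde5a and Pde3a leave out 0, yet none of the 9 members passed after adjustment over all tested genes.

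Genes that supply, regulate or read the pathway were taken from 8 role lists of 89 symbols that hold none of the members. Of these, 85 were in the table and 77 were tested, and 6 passed limma's test. The 2 higher in Ahr-KO (4.5% of all tested genes were) were Pde9a and Abcc5, and the 4 lower (6.26% of all) were Slc7a1, Ddah1, Calm3 and Csrp2. Limma-voom called 7 of the 77, namely Slc7a1, Ddah1, Pde9a, Abcc5, Csrp2, Gch1 and Cav1. The median log2 difference of the 77 was -0.11. In 8 of the 77 every Ahr-KO value lay above every WT value (17% of all tested genes). In 12 every Ahr-KO value lay below (17.4% of all). The count passing limma's test was 4 (number 0) or 0 (number 1 or 2) when 1 Ahr-KO library was left out. It was 1 (number 0), 0 (number 1) or 7 (number 2) when 1 WT library was left out.

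Of the genes for arginine supply and for handling synthase inhibitors, 1 each was lower in Ahr-KO past the threshold. Slc7a1, a transporter that brings arginine into cells, had 225, 229 and 244 in Ahr-KO and 329, 357 and 386 in WT. It fell to a mean of 233 ± 10.2 in Ahr-KO, against 357 ± 28.6 in WT (SD, n = 3 each), a log2 difference of -0.62 ± 0.12 (limma adjusted p = 0.022). The call held without WT library 2 and was lost without any 1 of the others (highest adjusted p = 0.080). Ddah1, the enzyme that degrades the synthase inhibitor dimethylarginine, had 662, 741 and 849 in Ahr-KO and 951, 1146 and 1137 in WT. It fell by 0.52 ± 0.13 on the log2 scale (limma adjusted p = 0.039), and the call was lost without any 1 of the 6 libraries (0.051 to 0.11). In the supply list 1 of 10 tested genes passed, and in the list of arginine competitors and inhibitor handling 1 of 5, with Ddah2 at log2 0.24 and Arg2 at -0.22. Gch1, the first enzyme of the synthase cofactor tetrahydrobiopterin, is named after its values were seen. It had 145, 117 and 184 in Ahr-KO and 231, 234 and 219.6 in WT, with no overlap, as in 17.4% of all tested genes in this direction. Its limma adjusted p was 0.070, and it was called by limma-voom and with equal library totals.

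Among 12 tested partners of the synthases, only Calm3, which encodes the calcium sensor calmodulin, passed. It stood at 1224, 1216 and 1119.97 in Ahr-KO and 1513, 1495 and 1434 in WT, a log2 difference of -0.32 ± 0.08 (limma adjusted p = 0.049). The call was lost under 13 of 18 alternatives, limma-voom among them (0.054), and held without WT library 2 alone among the libraries. Reads shared with genes of near-identical sequence leave its level uncertain. Caveolin-1, which binds the endothelial synthase and holds it inactive, is named after its values were seen. Cav1 had 47385, 44053 and 36295 in Ahr-KO and 28644, 32483 and 29371 in WT, with no overlap (limma adjusted p = 0.060, and called by limma-voom). In this direction 17% of all tested genes had no overlap.

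In the list of other cGMP phosphodiesterases, which also holds the non-catalytic Pde6d, Pde6g and Pde6h, 1 of 12 tested genes passed. Pde9a, which has a high affinity for cGMP and is not inhibited by sildenafil, had 879, 1039 and 956 in Ahr-KO and 707, 498 and 529 in WT. It rose to a mean of 958 ± 79.8 in Ahr-KO, against 578 ± 113 in WT (SD, n = 3 each), a log2 difference of 0.74 ± 0.15 (limma adjusted p = 0.021). The call was lost without number 1 or 2 of the Ahr-KO libraries or number 1 of the WT libraries (highest adjusted p = 0.084). Pde2a, which cGMP stimulates, averaged 1266 ± 136 in Ahr-KO and 1286 ± 214 in WT (SD, n = 3 each), at log2 -0.02. Of 8 cyclic AMP-specific phosphodiesterases, set beside these because Pde3a acts on cyclic AMP, Pde7b passed, at 122, 149.6 and 113 in Ahr-KO and 211, 199.6 and 271 in WT (log2 -0.82 ± 0.19, limma adjusted p = 0.032). That call held without WT library 2 and was lost without any 1 of the others (highest adjusted p = 0.12). The other 7 did not pass, and the median of the 8 was 0.34. In 4 of the 8, every Ahr-KO value lay above every WT value, as in 17% of all tested genes. These were Pde4b, Pde7a, Pde8a and Pde8b (limma adjusted p = 0.090, 0.13, 0.099 and 0.071). In 1, Pde7b, every Ahr-KO value lay below.

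**Figure D4:**
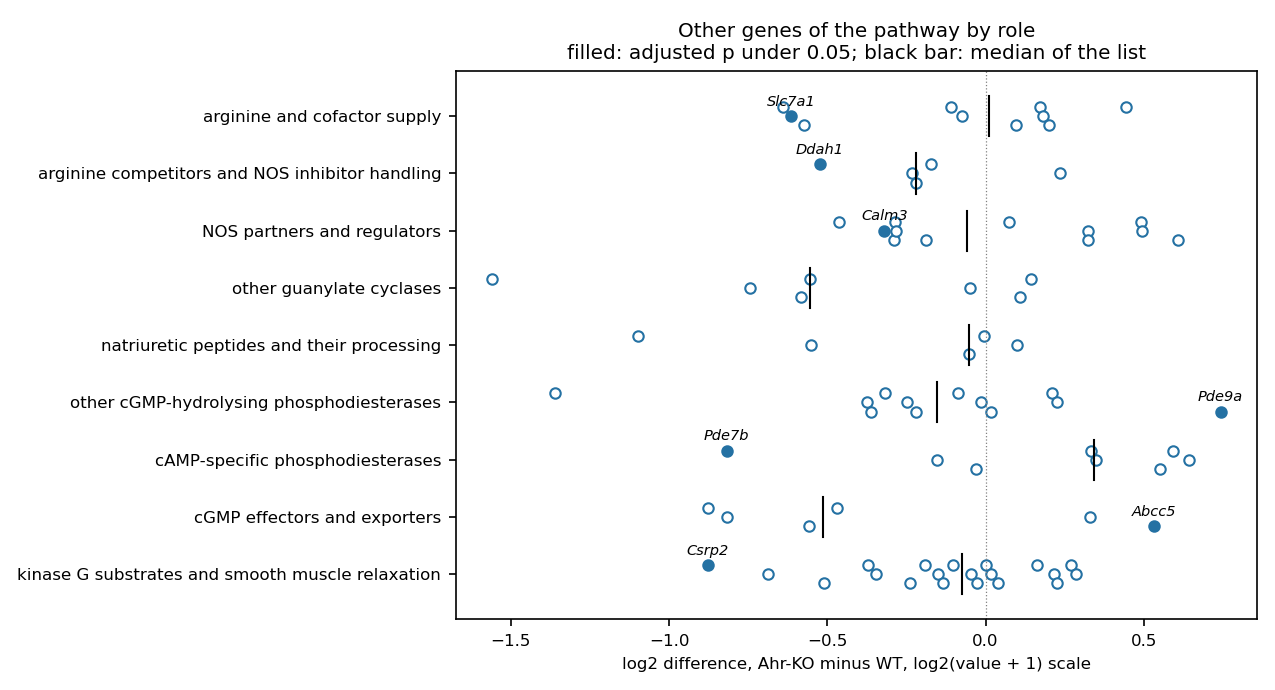
Log2 difference (Ahr-KO minus WT) of every tested gene in the 8 pathway role lists and in the cyclic AMP-specific phosphodiesterase list, with filled and named points for a limma adjusted p under 0.05 and a black bar at each list's median. Named points are 1 in each of 7 lists, and the lists of other guanylate cyclases and natriuretic peptides have 0.

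Beyond the kinase, Abcc5, an exporter of cyclic nucleotides, passed among 6 tested effectors and exporters. It had 2539.5, 2978 and 3712 in Ahr-KO and 2147, 2114 and 2048 in WT, a log2 difference of 0.53 ± 0.14 (limma adjusted p = 0.045). The call held without Ahr-KO library 0 and was lost without any 1 of the others (highest adjusted p = 0.12). Of 20 tested genes listed for kinase substrates and for smooth muscle relaxation or contraction, only Csrp2, a LIM-domain protein of smooth muscle, passed. It fell to 197, 182 and 129.6 in Ahr-KO, against 349, 296 and 281 in WT, a log2 difference of -0.88 ± 0.19 (limma adjusted p = 0.028). It was lost without number 1 or 2 of the Ahr-KO libraries or number 0 or 1 of the WT libraries (highest adjusted p = 0.088). Of 8 pericyte and fibroblast markers, Rgs5 and Col1a1 were lower in Ahr-KO past the threshold, and Cspg4 did not pass but had every Ahr-KO value above every WT value (log2 0.40, limma adjusted p = 0.076). The markers summed to 15116 to 18395 in Ahr-KO and 20418 to 25952 in WT. Without Col1a1, left out after the values were seen, they summed to 11642 to 14322 in Ahr-KO and 12263 to 15439.5 in WT, which overlap. Their part in the Csrp2 result was not tested.

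Other guanylate cyclases had 0 of 7 tested genes past the limma threshold (1 at an unadjusted p under 0.05, 0 by limma-voom). Gucy2d had the lowest p, at 0.81, 0.83 and 1.36 in Ahr-KO and 3.00, 6.57 and 5.60 in WT (limma adjusted p = 0.077), which is at most 8 reads. Gucy2g followed at 75.8, 76.0 and 45.0 in Ahr-KO and 72.0, 111 and 105 in WT (limma adjusted p = 0.25). Of 5 tested natriuretic peptide and processing genes, 0 passed (1 at an unadjusted p under 0.05, 0 by limma-voom). Corin, the protease that activates atrial natriuretic peptide, had 48.4, 28.9 and 20.5 in Ahr-KO and 54.0, 61.6 and 89.5 in WT (limma adjusted p = 0.090). Ostn, whose product osteocrin binds Npr3, had 6.45, 5.79 and 4.09 in Ahr-KO and 9.996, 8.21 and 6.99 in WT (limma adjusted p = 0.38). Nppa, the gene of atrial natriuretic peptide, reached at most 7.44 in Ahr-KO and 11.2 in WT. Markers of heart and pulmonary vein muscle, of which 0 of 7 passed limma's test (0 at an unadjusted p under 0.05, 0 by limma-voom), summed to 1634 to 2432 in Ahr-KO and 886 to 6776 in WT, highest in WT library 2, which also held the highest Nppa value. Platelet and red cell markers, of which 0 of 7 passed (4 at an unadjusted p under 0.05, 0 by limma-voom), summed to 2949.6 to 7085 in Ahr-KO and 4986 to 16218 in WT.

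**Figure D5:**
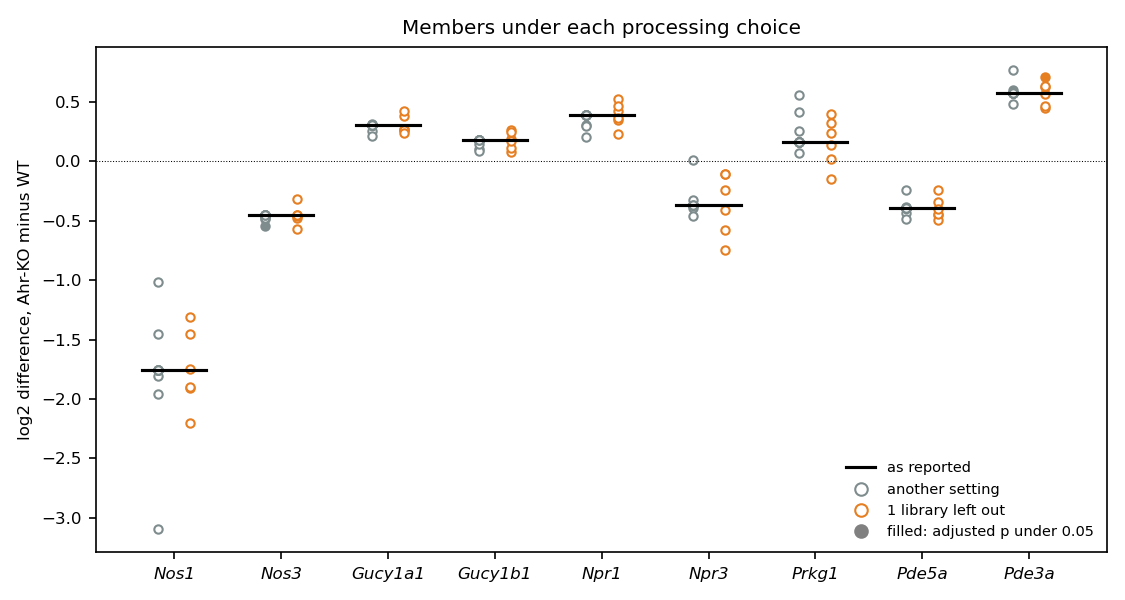
Log2 difference (Ahr-KO minus WT) of each tested member as reported (black bar), under other settings (grey) and with 1 library left out (orange), with filled points for an adjusted p under 0.05. Prkg1 and Npr3 reach both sides of 0, and filled points occur only for Nos3 and Pde3a.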

How the data were processed

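Bulk RNA-seq of total lung was compared between 3 Ahr-KO and 3 WT libraries. The authors deposited 1 table with a row per gene symbol and a column per library, whose values were treated as a normalised signal. From 97.4% to 97.9% of the values above 0 came within 0.05 of a whole number of recurring steps, and every member value did. The rest were fractions, so count models (negative binomial) were not used, and limma-voom on the values divided by the step is given only as an added alternative. Per the submitters' processing notes, the build was rn6 and FastQC was used, while aligner, counter, annotation and normalisation tool are not given in the sources. There were 0 unused columns. The columns count libraries from 0 and the sample titles from 1, so columns were assigned to groups only, and the header field NO is not explained. Every pair of libraries differed beyond sampling noise (lowest chi-square per gene 15.8 over 15 pairs).

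Values were transformed to log2(value + 1), and the 15386 genes that reached 1 in 3 or more libraries were tested for genotype with limma-trend (limma 3.58.1, R 4.3.3), with no other term. P-values are 2-sided, with Benjamini-Hochberg adjustment across these genes. An exact permutation of 3 against 3 cannot reach 0.05, so single genes were tested only in this model. The code was tested on simulated data. The members and lists were chosen with earlier results of these data known. The text names every member, and from each role list the genes past the threshold or, where there are none, the 2 with the lowest p; others are named for context or as chosen after their values were seen. Reads per value were estimated by dividing by the step. Alternatives were other normalisations, filters, a pseudocount of 0.1, model settings, thresholds, the library number as a block and each library left out. Promoter windows came from a table of RefSeq (GRCr8) windows, in which 9 of the 10 members were matched.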

Additional observations from a re-analysis of the deposited data

How the results depend on the processing

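Of 18 alternatives, 7 change only the test, the filter or the threshold and leave the member differences as they are. The other 11 gave 99 new member differences, of which 97 had the reported sign, 2 had the other, and 3 passed the threshold. The sign changes were Prkg1, at -0.15 without Ahr-KO library 0 (up to 0.40 without others), and Npr3, at 0.014 without both libraries numbered 2. The number of members called was 1 with equal library totals (Nos3, beside 11.5% of all tested genes), 1 with limma-voom (Pde3a, beside 10.5%), 2 at an adjusted p under 0.10 (18.5% of all tested genes) and 0 to 1 when 1 library was left out. Among the 77 other pathway genes, 2 were called by limma without the trend, 2 without both libraries numbered 2, 14 at an adjusted p under 0.10, 0 at a fold of at least 2, and 0 to 7 when 1 library was left out. Over all genes, 952 were called without the trend, 553 without both libraries numbered 2, 2853 at an adjusted p under 0.10, 676 at a fold of at least 2, and 407 to 1834 when 1 library was left out. The causes were not tested. With the library number as a replicate block, 899 genes, 2 other pathway genes (Ddah1 and Csrp2) and 0 members were called. Same-numbered libraries deviated from their group means with correlations of -0.10, 0.07 and -0.07, and differently numbered ones with -0.05 to 0.12. These values gave no sign that the numbers pair the samples, but with 3 libraries per group they cannot exclude it. Limma-voom and the fit without both shallowest libraries were chosen after seeing the data. Negative binomial count models were not run, because not all values could be recovered as whole reads, and limma-voom kept the scaling of the deposited values in place of the planned TMM scaling. Depth limits Nos1, Nos2, Gucy2d and Ostn, with a few reads each.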
